A study of Macaca fascicularis with 44 samples.

Results

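The neural ectoderm of cultured cynomolgus monkey (Macaca fascicularis) embryos at embryonic day 22 (E22) was compared with the non-neural ectoderm of the same single-cell RNA-seq libraries. Both are cell classes of the authors' deposited annotation. Of 3682 annotated cells in 44 libraries and 529 cells of E22, 57 belonged to neural and 47 to non-neural ectoderm. A library entered when it held at least 5 cells of each class, which left libraries 28 to 32 with 54 neural cells (11, 7, 16, 7 and 13) and 40 non-neural cells (7, 6, 8, 10 and 9). Library 33 held 3 neural and 7 non-neural cells and stands outside the main comparison. Counts were summed over the cells of each class in each library, and the classes were compared within libraries, so that each library contributed 1 neural and 1 non-neural sum.

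All E22 libraries carry wild-type cells, with no treatment named in the labels, from oocytes fertilized by sperm injection, grown to expanded blastocysts and kept in culture to E22. Extraembryonic tissue was cut away before the inner embryo was dissociated to single cells. According to the annotation, the E22 cells came from 1 embryo, a female. The 5 libraries are therefore repeat samples of 1 animal, and their spread says nothing about differences between animals. Each class also equals 1 cluster of the authors' own clustering and was named from the same transcripts that are compared here, so the p-values rank genes and are no test of whether the classes differ. A gene is termed called when its Benjamini-Hochberg adjusted p from edgeR's quasi-likelihood test fell below 0.05. Levels are counts scaled to the depth of the class sum (CPM), always in the order of libraries 28 to 32, and differences are fitted log2 values, neural minus non-neural, ± SE. CPM values were not scaled by transcript length, so levels are compared within a gene, not between genes.

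In vertebrate embryos the ectoderm divides into a neural plate, which folds into the neural tube, and a surface ectoderm that covers the body. BMP signalling favours surface fate, and its inhibitors, with FGF, allow neural fate. The border between the territories gives rise to neural crest and placodes, and the dorsal neural tube produces WNT and expresses PAX3, PAX7 and ZIC transcription factors. In primates the amnion is an ectodermal epithelium as well, continuous with the surface ectoderm at the edge of the embryo, and shares many of its transcripts.

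The summed depth ran from 482709 to 2191049 counts in neural and from 489379 to 1834809 counts in non-neural ectoderm. Counts per cell averaged 114548 ± 35214 (SD over 5 libraries) in neural and 130819 ± 51441 in non-neural ectoderm and were higher in the neural cells of 2 of 5 libraries (two-sided exact permutation test within libraries, p = 0.6875, smallest possible 0.0625). Genes detected per cell averaged 4942 ± 386 and 5038 ± 665 (exact permutation test, p = 0.9375). One non-neural cell of library 32 held 738565 counts, 40.3% of its class sum. No pair of ectoderm cells had identical counts, and all 96 well names recur in more than 1 library.

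Of 7536 genes tested, 219 were called (2.91%), 89 higher in neural (1.18%) and 130 higher in non-neural ectoderm (1.73%). By the same test, 975 of the 7536 had an unadjusted p under 0.05. The median difference over all tested genes was 0.03. The libraries of the classes did not overlap for 360 tested genes (4.78%), 155 higher in neural (2.06%) and 205 higher in non-neural ectoderm (2.72%). The neural side held PAX3, ZIC1 and WNT1 of the dorsal neural tube, the retinoic acid-binding CRABP1, the WNT antagonists SFRP1 and SFRP2, and the cell cycle genes MKI67, TOP2A and CCND1. The non-neural side held the adhesion genes EPCAM and CDH1, the keratins KRT19 and KRT7, the factors TFAP2A and GATA3, BMP4, and GABRP and VTCN1. Without library 30, 98 genes were called, without library 28, 140, and without library 31, 142. Leaving out library 29 or 32 left 192 and 213.

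Neural plate genes were examined first. The class was named from the same transcripts, so their levels describe it and do not test its label. Of 14 neural plate genes found in the table, 7 passed the filter on low counts, 4 were higher in neural ectoderm, none was lower, and the median difference of those tested was 2.86. Genes that passed through the class in which they are high had to differ, so such counts describe the tested members and not the full list. The summed list ran from 499 to 1090 CPM in neural and from 57.2 to 340 CPM in non-neural ectoderm. In Mesoderm and in the authors' extraembryonic mesoderm of the same libraries the sum ran from 299 to 451 CPM and from 295 to 413 CPM. SOX2, a defining neural progenitor factor that fell below the filter, measured 13.5, 20.7, 26.5, 4.14 and 49.8 CPM in neural and 0, 0, 0, 0 and 2.73 CPM in non-neural ectoderm. FABP7, the brain fatty acid-binding protein of neural progenitors, measured 8.51, 8.45, 23.7, 31.1 and 46.2 CPM in neural and 0, 0, 0, 0 and 0 CPM in non-neural ectoderm. Both were detected in every neural sum, while FABP7 was at 0 and SOX2 in 1 library only on the non-neural side. Against a floor of 3 counts over all non-neural sums, FABP7 was at least 40-fold higher in neural ectoderm. PAX6, a regulator of neural progenitor identity that was also untested, measured 22, 2.82, 2.28, 0 and 14.2 CPM in neural and 0, 0, 0, 0 and 0 CPM in non-neural ectoderm, at least 15.7-fold higher in the pooled neural sums over the same floor but at 0 in library 31. Of its neural counts, 56.4% came from 1 cell. PAX6 had a count in 6 of 54 neural cells, 0 of 40 non-neural cells and 7 of 149 Mesoderm cells of the same libraries. SOX1, SOX3 and SOX21 had no count in either class.

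Among the tested neural plate genes, PTPRZ1, a receptor phosphatase of neural progenitors, measured 88.6, 109, 127, 95.3 and 282 CPM in neural and 0, 4.09, 0, 101 and 20.2 CPM in non-neural ectoderm, a difference of 3.98 ± 0.89. The ranges overlap through library 31, where the non-neural value came mostly from 1 cell. NES, the intermediate filament nestin, measured 51.1, 62.9, 59.8, 91.2 and 98.7 CPM in neural and 1.83, 6.13, 1.48, 73.6 and 18.5 CPM in non-neural ectoderm (2.86 ± 0.70), and again the non-neural sum of library 31 stood inside the neural range. ZIC2, a zinc finger factor required for neural tube closure, measured 58.9, 145, 66.6, 16.6 and 181 CPM in neural and 3.65, 0, 0, 20.4 and 13.6 CPM in non-neural ectoderm (3.8 ± 0.91). ZEB2, a repressor active in early neural cells, measured 101, 57.3, 111, 112 and 138 CPM in neural and 24.6, 2.04, 1.48, 59.5 and 14.2 CPM in non-neural ectoderm (2.9 ± 0.63). ZIC2 was higher in the neural sum of each library except library 31, where 16.6 CPM stood below 20.4 CPM. By edgeR, the call was lost for ZIC2 without library 28, 29, 30 or 32 (adjusted p = 0.111, 0.0918, 0.143 and 0.117), ZEB2 without library 30 or 32 (adjusted p = 0.0852 and 0.0638), NES without library 28, 29, 30 or 32 (adjusted p = 0.135, 0.0878, 0.16 and 0.081) and PTPRZ1 without library 28, 29, 30 or 32 (adjusted p = 0.0689, 0.0656, 0.112 and 0.0604). Calls that ended in other alternatives were those of ZIC2 without the deepest cell (adjusted p = 0.0588), ZEB2 without the replicate block (adjusted p = 0.0551), NES under limma-voom (adjusted p = 0.0913), without the replicate block (adjusted p = 0.279) and with thinned cells (adjusted p = 0.108) and PTPRZ1 without the replicate block (adjusted p = 0.147). The list's count of 4 fell to 1 without library 28, 2 without library 29 and 0 without library 30 or library 32.

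**Figure D1:**
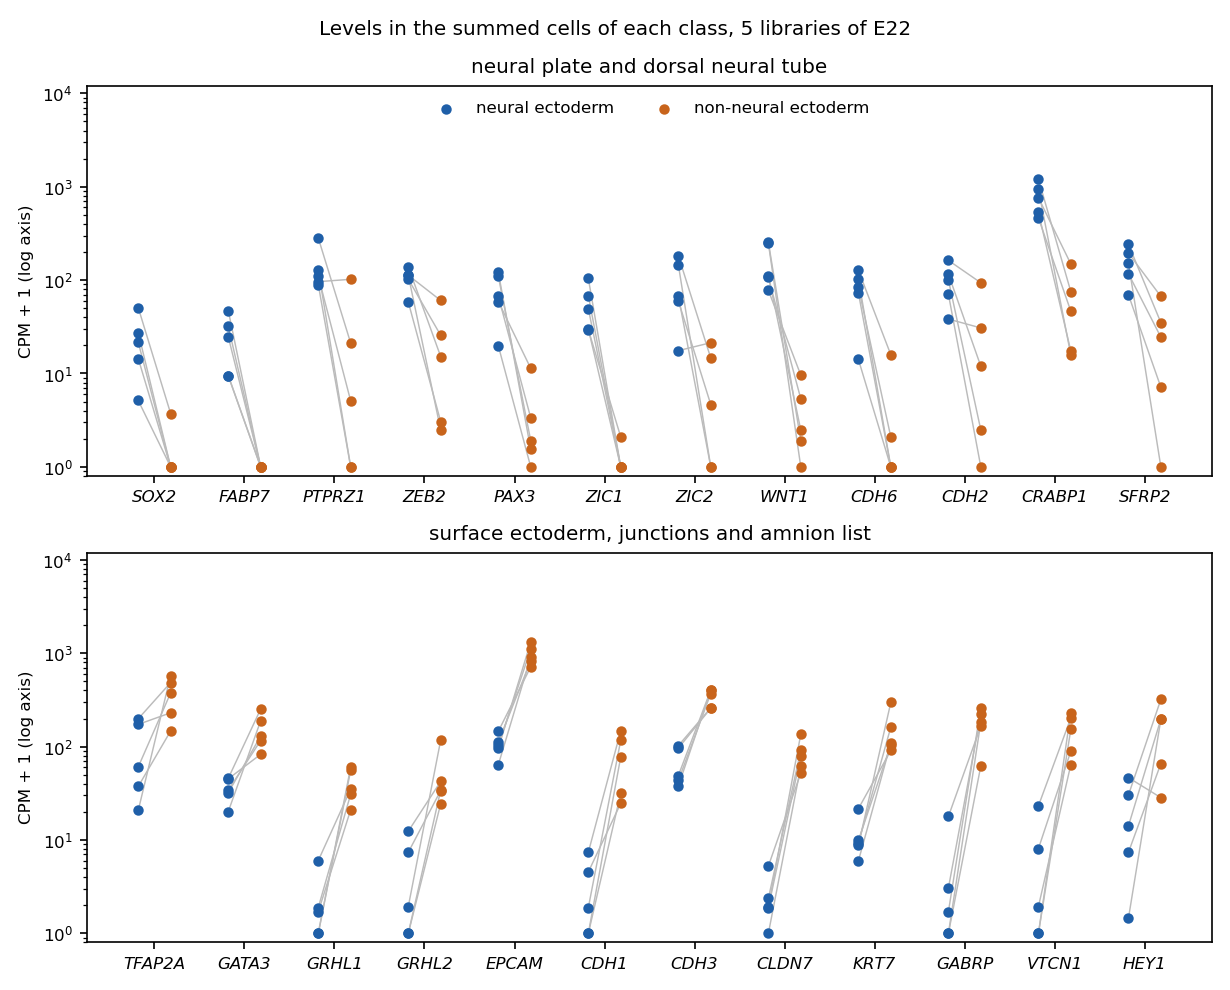
Each point is the level (CPM plus 1, log axis) of a gene in the summed cells of 1 class in 1 library, with grey lines joining the classes of a library. The upper panel holds neural plate and dorsal genes, with ZIC1, WNT1 and CRABP1 separated in every library and CDH2 overlapping. The lower panel holds surface ectoderm, junction and amnion genes, with EPCAM between 62.9 and 145 CPM in neural and between 714 and 1317 CPM in non-neural ectoderm.

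Of 11 dorsal neural tube genes matched, 5 were tested and 3 were higher in neural ectoderm (PAX3, ZIC1 and WNT1). The median of the 5 was 5.15, and members at or near 0 in non-neural ectoderm passed the filter through their neural level. WNT1, the ligand made at the dorsal midline, measured 253, 248, 110.0, 76.7 and 106 CPM in neural and 0.913, 0, 1.48, 8.62 and 4.36 CPM in non-neural ectoderm (5.34 ± 0.67). PAX3, the paired-box factor of dorsal neural progenitors, measured 109, 18.8, 58, 66.3 and 120.0 CPM in neural and 0.913, 0, 10.4, 2.35 and 0.545 CPM in non-neural ectoderm (5.15 ± 0.85). ZIC1, a dorsal zinc finger factor, measured 67.4, 103, 48.4, 29 and 28.4 CPM in neural and 0, 0, 0, 0 and 1.09 CPM in non-neural ectoderm. The neural values of these genes lay above every non-neural value. For ZIC1 the 357 neural counts stood against 2 non-neural counts, a ratio of the pooled levels of 153 (95% exact interval 42 to 1267, counting error only), and the fitted 6.8 ± 1.00 of so low a denominator depends on the prior count. ZIC4, the gene beside ZIC1, measured 83, 73.3, 15.1, 16.6 and 16.9 CPM in neural and 0.913, 0, 0, 0 and 1.09 CPM in non-neural ectoderm, a pooled ratio of 72.8 (24.6 to 355) from 3 non-neural counts, and was not called by edgeR without library 28 (adjusted p = 0.0545). The call was also lost for ZIC4 with at least 8 cells a class (adjusted p = 0.612). Only libraries 30 and 32 met that minimum. PAX7 was below the filter and measured 3.55, 0.939, 18.7, 2.07 and 13.3 CPM in neural and 0, 0, 0, 3.13 and 0.545 CPM in non-neural ectoderm.

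MSX1, a BMP target of the dorsal midline, measured 21.3, 51.7, 32.4, 29 and 34.7 CPM in neural and 29.2, 22.5, 11.8, 21.9 and 15.8 CPM in non-neural ectoderm and was not called (0.7 ± 0.64). The values of MSX1 overlapped, in contrast to WNT1 and PAX3. No member of the lists for anterior neural (12 matched) and ventral neural tube (8 matched) passed the filter. SIX3, a forebrain factor, had no count in either class. OLIG2, of the ventral motor neuron domain, and NKX6-1, of the ventral tube, reached 0.889 and 3.55 CPM in 1 neural library each. OTX2, the forebrain and midbrain factor, measured 0, 0, 8.22, 0 and 0 CPM in neural and 0, 10.2, 0, 11.7 and 15.8 CPM in non-neural ectoderm. HESX1, an anterior repressor, was the one anterior gene with a neural mean above 5 CPM and measured 0, 13.1, 6.39, 14.5 and 0 CPM in neural and 0, 0, 1.48, 0.783 and 0.545 CPM in non-neural ectoderm. The summed anterior list ran from 0 to 14.6 CPM in neural and from 1.48 to 16.4 CPM in non-neural ectoderm, and 10 of its 12 genes had no neural count.

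HOX genes, which mark position along the body axis, were measured in both classes. Of 37 matched, 20 were tested and edgeR called none, with 5 at an unadjusted p under 0.05 (975 of 7536 over all genes). DESeq2 called 3 higher and 1 lower, and limma-voom 2 higher and 1 lower, with HOXA2 among the higher ones in both. The median HOX difference was 1.03, against 0.03 over all genes. The summed level of paralog groups 9 and 10, the most posterior set above a trace level, ran from 122 to 410 CPM (median 349) in neural and from 53.1 to 215 CPM (median 198) in non-neural ectoderm. Mesoderm of the same libraries gave 280 to 414 CPM (median 377). The neural and non-neural ranges overlapped.

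HOXA9, a posterior HOX gene, measured 44, 217, 176, 197 and 75.6 CPM in neural and 119, 8.17, 169, 32.1 and 77.9 CPM in non-neural ectoderm (0.87 ± 0.65). HOXB9, of the same paralog group, measured 15.6, 95.8, 74.4, 66.3 and 56.9 CPM in neural and 41.1, 0, 2.96, 9.40 and 13.1 CPM in non-neural ectoderm (2.65 ± 0.96). Neither was called, and the values of both genes overlapped, with a non-neural low of HOXA9 in library 29 and a neural low in library 28. At the front of the clusters, HOXA2, a hindbrain gene, measured 47.5, 47.9, 43.8, 6.21 and 21.3 CPM in neural and 14.6, 0, 0, 0 and 2.73 CPM in non-neural ectoderm (3.97 ± 1.11, edgeR adjusted p = 0.0738). The sums of paralog groups 1 to 3 ran from 193 to 441 CPM in neural and from 192 to 237 CPM in non-neural ectoderm, and paralog groups 11 to 13 were near 0 in both.

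**Figure D2:**
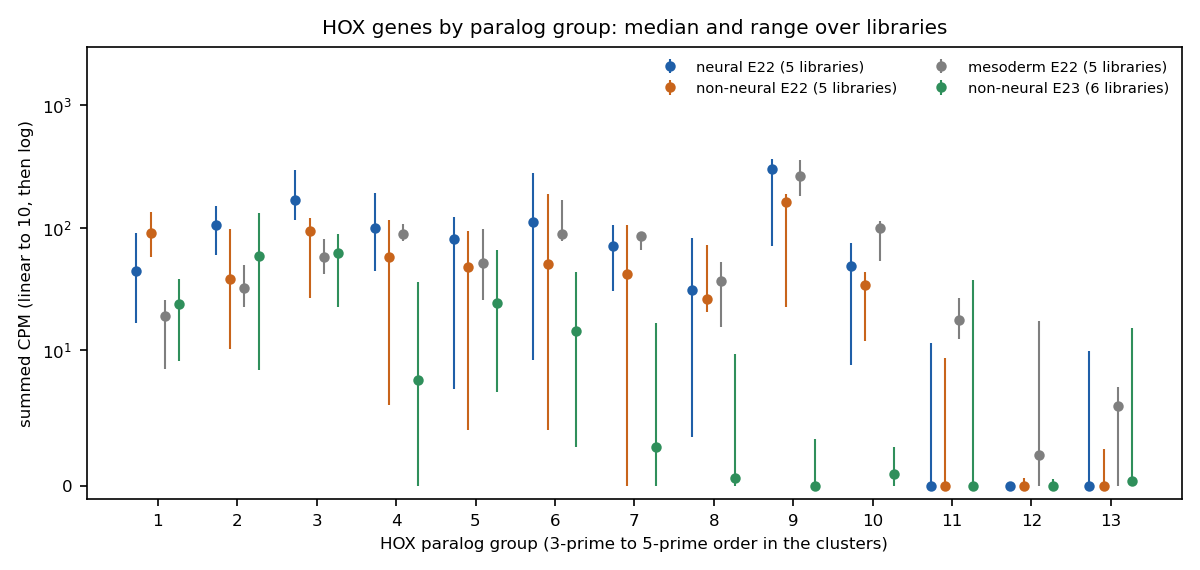
Points give the median and bars the lowest to highest summed level (CPM, linear to 10 and log above) of the HOX genes of each paralog group, for neural and non-neural ectoderm and Mesoderm of E22 (5 libraries each) and non-neural ectoderm of E23 (6 libraries). Paralog groups 9 and 10 are present in the 3 classes of E22 and close to 0 at E23.

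Few neural crest and neuronal genes passed the filter. Of 7 crest genes, 2 were tested and none was called by edgeR, DESeq2 or limma-voom. By edgeR, 0 had an unadjusted p under 0.05 (975 of 7536 over all genes). SOX10, the defining crest factor, was untested and measured 4.96, 0, 25.6, 16.6 and 4.44 CPM in neural and 0, 0, 2.96, 0 and 0.545 CPM in non-neural ectoderm. SNAI2, a repressor of epithelial genes in migrating crest, measured 130.5, 74.2, 110.4, 116 and 79.1 CPM in neural and 157, 18.4, 79.9, 72.1 and 33.8 CPM in non-neural ectoderm (0.73 ± 0.38), and its values overlapped. Of 12 neuronal genes, 3 were tested and 1 was called. The summed neuronal list ran from 89.1 to 236 CPM in neural and from 7.40 to 95.8 CPM in non-neural ectoderm. Mesoderm of the same libraries had 17.3 to 106 CPM and the authors' extraembryonic mesoderm 71.6 to 258 CPM. MAP2, a microtubule protein of neurons and their precursors, measured 48.9, 61.1, 65.7, 53.9 and 115 CPM in neural and 0.913, 49, 5.92, 3.92 and 8.18 CPM in non-neural ectoderm (3.22 ± 0.73), but edgeR did not call MAP2 without library 28, 30, 31 or 32 (adjusted p = 0.0771, 0.112, 0.111 and 0.106) or MAP2 without the replicate block (adjusted p = 0.0691).

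CDH6, a cadherin of the dorsal neural tube and crest, measured 102, 13.1, 72.1, 126 and 82.7 CPM in neural and 0, 0, 0, 14.9 and 1.09 CPM in non-neural ectoderm (5.56 ± 0.89). Its neural value in library 29 fell inside the non-neural range. Other genes among the 15 largest neural differences were not neural plate regulators by list. RFX4, a transcription factor of the developing neural tube, measured 87.9, 78, 63, 10.4 and 55.1 CPM in neural and 1.83, 2.04, 2.96, 0 and 1.64 CPM in non-neural ectoderm (5.07 ± 0.74). GLRA1, a glycine receptor subunit, measured 23.4, 48.8, 43.4, 45.6 and 129.8 CPM in neural and 0, 0, 0, 0.783 and 0 CPM in non-neural ectoderm. It had 348 neural counts against 1 non-neural count, a pooled ratio of 298 (95% exact interval 53.1 to 11804), and every neural value lay above every non-neural one. ANO3, an anoctamin membrane protein, measured 109.9, 37.6, 96.3, 64.2 and 75.6 CPM in neural and 0, 0, 0, 0 and 3.82 CPM in non-neural ectoderm (6.57 ± 0.91). The rest were MMRN1, MEIOB, the MAX partner MXD3, the axonal transport adaptor FEZ1, ASRGL1, CRABP1 and the mitotic spindle gene FAM83D. The edgeR call was lost for MEIOB without library 30 or 31 (adjusted p = 0.063 and 0.0669), MXD3 without library 30 or 31 (adjusted p = 0.0525 and 0.0764), FEZ1 without library 32 (adjusted p = 0.0779), ASRGL1 without library 31 (adjusted p = 0.061) and FAM83D without library 28, 30 or 31 (adjusted p = 0.0714, 0.0882 and 0.0938), whereas GLRA1, ANO3, MMRN1 and RFX4 kept it whichever library was left out. Other alternatives ended the call of MXD3 with at least 8 cells a class (adjusted p = 0.0637) and FAM83D under limma-voom (adjusted p = 0.0511) and with at least 8 cells a class (adjusted p = 0.397).

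On the non-neural side, the surface ectoderm list had no member called toward neural ectoderm. Of 18 matched, 13 were tested, 8 were higher in non-neural ectoderm, and the median difference was −2.79. EPCAM, the epithelial adhesion molecule, measured 111, 62.9, 94.9, 145 and 102 CPM in neural and 829.5, 909, 1317, 714 and 1100.4 CPM in non-neural ectoderm (−3.3 ± 0.24, edgeR adjusted p = 1.58e-06). KRT19, a simple epithelial keratin, measured 301, 664, 215, 433 and 453 CPM in neural and 1966, 1469, 2083, 2090.5 and 2534 CPM in non-neural ectoderm (−2.43 ± 0.23). KRT7, another, measured 4.96, 20.7, 7.76, 8.29 and 8.89 CPM in neural and 108, 89.9, 296, 161 and 104 CPM in non-neural ectoderm (−3.94 ± 0.49). For all 3 genes, each non-neural library exceeded each neural library.

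Of the transcription factors in this list, TFAP2A, the AP-2 factor of surface ectoderm and crest, measured 59.6, 19.7, 198, 172 and 36.4 CPM in neural and 375, 576, 484, 229 and 146 CPM in non-neural ectoderm (−2.18 ± 0.46). The neural sums of libraries 30 and 31 reached into the non-neural range. GATA3, a surface ectoderm factor, measured 19.1, 44.1, 44.7, 33.1 and 31.1 CPM in neural and 188, 81.7, 252, 115 and 129 CPM in non-neural ectoderm (−2.16 ± 0.39), without overlap. The grainyhead factor GRHL1, a regulator of epithelial genes, measured 0.709, 0, 5.02, 0 and 0.889 CPM in neural and 20.1, 59.3, 34, 54.8 and 30 CPM in non-neural ectoderm (−5.01 ± 1.05), and its relative GRHL2 measured 6.38, 0.939, 11.4, 0 and 0 CPM in neural and 32.9, 116, 41.4, 23.5 and 33.2 CPM in non-neural ectoderm (−4.15 ± 1.02). Both were at or near 0 in most neural sums. By edgeR, there was no call for TFAP2A without library 28 (adjusted p = 0.077), GATA3 without library 30 (adjusted p = 0.0582), GRHL1 without library 31 (adjusted p = 0.0803) and GRHL2 without library 28, 29, 30, 31 or 32 (adjusted p = 0.0519, 0.16, 0.0525, 0.115 and 0.0944), nor in other alternatives for GRHL1 with at least 8 cells a class (adjusted p = 0.319) and GRHL2 with at least 8 cells a class (adjusted p = 0.283) and with thinned library sums (adjusted p = 0.0512). TFAP2B, a second AP-2 gene, measured 50.3, 0, 115, 45.6 and 51.6 CPM in neural and 73, 100.1, 94.7, 76 and 53.4 CPM in non-neural ectoderm and was not called (−0.98 ± 0.72). Its values overlapped, with none in the neural sum of library 29. GRHL3, which acts in neural fold closure, was untested, at 2.13, 0, 0.456, 0 and 47.1 CPM in neural and 0, 40.9, 32.6, 39.2 and 0 CPM in non-neural ectoderm. DLX5, a border and surface factor, measured 94.3, 0.939, 48.4, 12.4 and 1.78 CPM in neural and 109.5, 119, 63.7, 125 and 89.4 CPM in non-neural ectoderm (−2.76 ± 0.84, not called).

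Cell adhesion genes showed a contrast of cadherins. Of 9 classical cadherins, 5 were tested, 1 was higher and 2 were lower in neural ectoderm. CDH1, E-cadherin, measured 3.55, 0, 6.39, 0 and 0.889 CPM in neural and 23.7, 30.7, 147, 76.8 and 116 CPM in non-neural ectoderm (−5.09 ± 0.80). CDH3, P-cadherin, measured 36.9, 101, 42.4, 95.3 and 48 CPM in neural and 401, 259.5, 369, 257 and 402 CPM in non-neural ectoderm (−2.54 ± 0.34). Both had no overlap between the classes. CDH2, N-cadherin, which replaces E-cadherin in the neural tube, measured 115, 69.5, 99.5, 37.3 and 162 CPM in neural and 11, 0, 1.48, 29.8 and 92.7 CPM in non-neural ectoderm (2.63 ± 0.78) and fell short of the call (edgeR adjusted p = 0.0924). The non-neural 92.7 CPM stood in library 32, which holds the very deep cell. Without that cell the difference was 3.26 with an edgeR adjusted p = 0.0323. CDH2 was detected in 42 of 54 neural, 15 of 40 non-neural and 111 of 149 Mesoderm cells of these libraries, so its presence was not particular to neural ectoderm. CLDN7, a tight junction claudin, measured 4.25, 0.939, 1.37, 0 and 0.889 CPM in neural and 51.1, 135, 90.3, 60.3 and 79 CPM in non-neural ectoderm (−5.69 ± 0.72). It was the called gene of the 2 tested among 13 tight junction genes, and its non-neural values all exceeded its neural ones.

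The amnion list shares TFAP2A and GATA3 with the surface ectoderm list. Of its 15 genes matched, 12 were tested and 6 were higher in non-neural ectoderm (median −1.69). The summed list ran from 366 to 596 CPM in neural and from 1441 to 2040 CPM in non-neural ectoderm. Mesoderm of the same libraries had 1078 to 1886 CPM and the authors' extraembryonic mesoderm 3732 to 7769 CPM, so the list sum was not particular to non-neural ectoderm. GABRP, a GABA receptor subunit abundant in amnion, measured 0.709, 0, 0, 2.07 and 16.9 CPM in neural and 259, 61.3, 182, 222 and 166 CPM in non-neural ectoderm (−6.4 ± 0.79). VTCN1, an immune checkpoint ligand of amnion and trophoblast, measured 7.09, 0.939, 0, 0 and 22.2 CPM in neural and 88.5, 63.3, 231, 153 and 202 CPM in non-neural ectoderm (−5.19 ± 0.79). Neither gene overlapped between the classes. In library 33, outside the main comparison, GABRP was at 1.42 CPM and VTCN1 at 39.8 CPM in the 7 non-neural cells, so GABRP was not uniform over non-neural libraries. HEY1, a NOTCH target, measured 6.38, 13.1, 0.456, 45.6 and 29.3 CPM in neural and 64.8, 196, 195, 27.4 and 319.9 CPM in non-neural ectoderm (−3.48 ± 0.82). IGFBP3, an IGF-binding protein, measured 145, 242, 78.5, 29 and 37.3 CPM in neural and 242, 229, 413, 419.8 and 268 CPM in non-neural ectoderm (−1.93 ± 0.45). Both genes overlapped between the classes. In edgeR the call was lost for HEY1 without library 28, 29, 30 or 32 (adjusted p = 0.094, 0.103, 0.1 and 0.102) and IGFBP3 without library 30, 31 or 32 (adjusted p = 0.17, 0.144 and 0.0971), and also for IGFBP3 with at least 3 cells a class (adjusted p = 0.141). The count of 6 fell to 3 without library 30.

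Extraembryonic mesenchyme and trophoblast markers had higher sums in the non-neural than in the neural class. The summed level of 10 extraembryonic mesenchyme genes, none at 0, ran from 672 to 1653 CPM in neural (median 689) and from 1894 to 2756 CPM in non-neural ectoderm (median 2041). Mesoderm of the same libraries had 3858.5 to 6369 CPM and the authors' extraembryonic mesoderm 19158 to 30104 CPM. Of the 7 tested, 3 collagen genes were higher in non-neural ectoderm, COL1A1 (−1.38 ± 0.28), COL1A2 (−1.44 ± 0.33) and COL3A1 (−1.3 ± 0.22). Of these, edgeR no longer called COL1A1 without library 30 or 31 (adjusted p = 0.0885 and 0.0621) and COL1A2 without library 29, 30, 31 or 32 (adjusted p = 0.0938, 0.146, 0.0809 and 0.0794) or COL1A2 without the replicate block (adjusted p = 0.0589), and the list's count was 1 without library 30 or 31. The 7 trophoblast genes summed to 37.3 to 74.4 CPM in neural and 91.8 to 530 CPM in non-neural ectoderm. Mesoderm had 104 to 208 CPM and extraembryonic mesoderm 137 to 1089 CPM, so neither sum was particular to non-neural ectoderm. XAGE2 and CYP19A1 of this list were at 0 in neural ectoderm. PAGE4, another member, measured 32.6, 16, 25.1, 20.7 and 8.00 CPM in neural and 475, 18.4, 31.1, 92.4 and 151 CPM in non-neural ectoderm (−2.27 ± 0.61, not called by edgeR with an adjusted p = 0.061, but called by DESeq2 and limma-voom). The high PAGE4 values stood in libraries 28, 31 and 32. The part of the extraembryonic mesenchyme and trophoblast sets in the surface ectoderm and amnion values above was not tested. Other marker sets overlapped between the classes, and edgeR called none of their members. Median sums in neural and non-neural ectoderm were 50.7 and 42.9 CPM for mesoderm and 80.8 and 53.1 CPM for endoderm. For endothelium and blood they were 11.4 and 27.8 CPM.

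**Figure D3:**
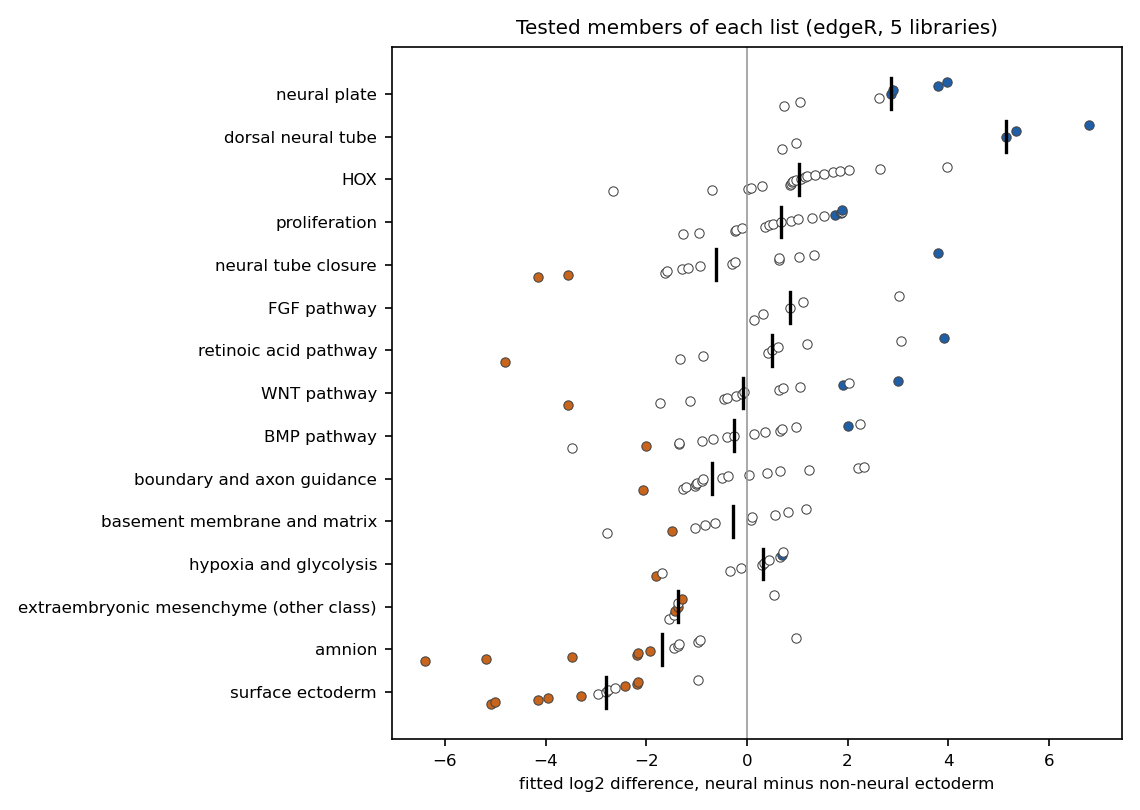
Each point is the fitted log2 difference (neural minus non-neural) of 1 tested gene, filled where it was called, and the black bar is the median of the list. The 5 tested of 11 dorsal genes have a median of 5.15 and the 13 tested of 18 surface ectoderm genes one of −2.79. Members that passed the filter only through the class in which they are high had to differ, so the medians describe the tested members. The WNT and BMP lists (14 of 40 and 15 of 25 tested) lie around 0 with members on both sides.

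Among other non-neural genes of the 15 largest differences, LRRN4, a leucine-rich repeat protein, differed by −6.34 ± 0.84, the copine CPNE8 by −5.82 ± 1.04 and MACC1 by −5.63 ± 1.27. PON3, a paraoxonase, ERP27, an endoplasmic reticulum protein, and SLC16A9, of the monocarboxylate transporter family, differed by −5.27 ± 0.84, −5.24 ± 1.07 and −5.22 ± 1.09. CHMP4C, an ESCRT component, BIK, a pro-apoptotic BCL2 relative, and CYP1B1, a cytochrome P450, differed by −4.76 ± 0.87, −4.72 ± 0.79 and −4.26 ± 0.54. LRRN4, CPNE8, PON3, BIK and CYP1B1 kept the call whichever library was left out. Those that edgeR lost were MACC1 without library 28, 29 or 31 (adjusted p = 0.097, 0.154 and 0.0552), ERP27 without library 28 or 30 (adjusted p = 0.0586 and 0.0846), SLC16A9 without library 30 or 31 (adjusted p = 0.1 and 0.0646) and CHMP4C without library 30 (adjusted p = 0.0985). Other alternatives ended the edgeR call of CPNE8 with at least 8 cells a class (adjusted p = 0.121) and MACC1 without the replicate block (adjusted p = 0.0611) and with at least 8 cells a class (adjusted p = 0.346).

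In the BMP pathway the ligand and a target were called in opposite directions. Of 25 genes matched, 15 were tested, 1 was higher in neural and 1 in non-neural ectoderm (median −0.26). BMP4, a ligand that favours surface fate, measured 55.3, 38.5, 45.2, 35.2 and 35.6 CPM in neural and 202, 135, 315, 82.2 and 143 CPM in non-neural ectoderm (−2.0 ± 0.33). BMP2, a related ligand, measured 6.38, 4.70, 1.37, 0 and 3.56 CPM in neural and 52.9, 24.5, 32.6, 23.5 and 26.7 CPM in non-neural ectoderm (−3.49 ± 0.91, edgeR adjusted p = 0.0521). All non-neural values of both ligands exceeded all neural ones. ID3, a target and dominant-negative partner of bHLH factors, measured 591, 257, 1937, 1181 and 1241 CPM in neural and 100.4, 194, 199.8, 226 and 419.7 CPM in non-neural ectoderm (2.01 ± 0.31). Its neural value in library 29 lay within the non-neural range. ID1, the sister target, differed by 0.35 ± 0.27 and was not called, and neither was the extracellular inhibitor FST, which measured 71.6, 121, 139, 14.5 and 95.1 CPM in neural and 1.83, 26.6, 7.40, 48.6 and 28.9 CPM in non-neural ectoderm (2.25 ± 0.80).

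In the WNT pathway, 14 of 40 genes were tested, 2 were higher and 1 was lower in neural ectoderm (median −0.08). SFRP1, a secreted antagonist, measured 235, 174, 157, 133 and 85.3 CPM in neural and 33.8, 16.3, 34, 72.8 and 49.6 CPM in non-neural ectoderm (1.91 ± 0.43). SFRP2, a second one, measured 152, 68.6, 241, 116 and 194 CPM in neural and 0, 6.13, 34, 23.5 and 65.9 CPM in non-neural ectoderm (3.0 ± 0.62). Both antagonists were higher in all 5 neural sums, and their ranges did not overlap. The receptor FZD6 measured 8.51, 25.4, 3.65, 0 and 0.889 CPM in neural and 69.4, 75.6, 47.4, 25.1 and 54 CPM in non-neural ectoderm (−3.55 ± 0.77), lower in neural ectoderm. WNT6, a surface ectoderm ligand below the filter, measured 0, 0, 1.83, 2.07 and 0 CPM in neural and 0.913, 77.6, 99.2, 5.48 and 2.18 CPM in non-neural ectoderm, high in libraries 29 and 30. The edgeR calls were lost for SFRP1 without library 28, 29 or 30 (adjusted p = 0.113, 0.0644 and 0.115), SFRP2 without library 30 or 31 (adjusted p = 0.0885 and 0.0552) and FZD6 without library 28, 30, 31 or 32 (adjusted p = 0.0677, 0.0892, 0.0579 and 0.0669). Other settings ended those of SFRP1 with at least 8 cells a class (adjusted p = 0.261) and without the deepest cell (adjusted p = 0.0601) and FZD6 with at least 3 cells a class (adjusted p = 0.158).

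Retinoic acid genes were likewise called in both directions. Of 15 genes, 9 were tested, 1 was higher and 1 lower in neural ectoderm (median 0.50). CRABP1, a cellular retinoic acid-binding protein, measured 761, 531, 934, 462 and 1206 CPM in neural and 148, 16.3, 14.8, 45.4 and 74.1 CPM in non-neural ectoderm (3.92 ± 0.40). Each neural value exceeded each non-neural value. CRABP2, its relative, was abundant in both classes, with 1703, 2723, 2813, 1956 and 2678 CPM in neural and 1557, 1126, 1664, 2250.3 and 1572 CPM in non-neural ectoderm (0.5 ± 0.18, not called). DHRS3, which reduces retinaldehyde and is induced by retinoic acid, measured 0.709, 0.939, 8.22, 0 and 1.78 CPM in neural and 18.3, 151, 62.2, 29.8 and 48 CPM in non-neural ectoderm (−4.8 ± 0.83). Here the non-neural values were higher in all libraries.

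Most FGF, NOTCH and hedgehog genes fell below the filter, with 5 of 22, 5 of 17 and 5 of 13 tested. The counts of calls therefore describe these members and not the pathways. Over all genes, 219 of 7536 were called and 975 had an unadjusted p under 0.05 by edgeR. Of 5 FGF pathway genes tested among 22, edgeR called none, DESeq2 none and limma-voom 1, with 3 at an unadjusted p under 0.05. FGFR1, the main receptor in early ectoderm, differed by 0.86 ± 0.33, and DUSP6, a feedback target, by 1.11 ± 0.43. HEY1 was the called NOTCH gene of 5 tested. None of 5 hedgehog genes tested was called by edgeR, DESeq2 or limma-voom, and 0 had an unadjusted p under 0.05.

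Genes of neural tube closure were called in both directions. Of 21 matched, 14 were tested, 1 was higher in neural (ZIC2) and 2 in non-neural ectoderm (GRHL2 and FZD6), and the median was −0.61. Without library 28, 30 or 32, edgeR called none of these 3 (adjusted p from 0.0519 to 0.143). The planar polarity gene VANGL2 differed by 1.34 ± 0.39 and the receptor PTK7 by −1.16 ± 0.39, neither called. Of 16 tested boundary and guidance genes, EFNA1 alone was called. EFNA1, an ephrin ligand, measured 44, 91.1, 51.6, 95.3 and 60.4 CPM in neural and 273, 378, 179, 239.7 and 289 CPM in non-neural ectoderm (−2.06 ± 0.27), without overlap. Its receptors EPHA4 and EPHA7 differed the other way, by 2.33 ± 0.87 and 2.21 ± 0.75, and were not called. FN1, fibronectin of the extracellular matrix, measured 264, 342, 110.4, 109.8 and 152 CPM in neural and 443, 401, 460.4, 814 and 401 CPM in non-neural ectoderm (−1.48 ± 0.31) but edgeR did not call FN1 without library 30 or 31 (adjusted p = 0.112 and 0.0809).

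Among proliferation genes all 17 were tested, 3 were higher in neural ectoderm, none was lower, and the median was 0.69. MKI67, the proliferation antigen, measured 356, 389, 410.3, 437 and 260.4 CPM in neural and 229, 55.2, 38.5, 84.6 and 166 CPM in non-neural ectoderm (1.88 ± 0.38). TOP2A, a topoisomerase of dividing cells, measured 1370.0, 983, 1031, 1487 and 664 CPM in neural and 642, 40.9, 272, 218 and 718 CPM in non-neural ectoderm (1.9 ± 0.44), with an overlap through the non-neural sum of library 32. CCND1, a G1 cyclin, measured 135, 259, 305, 284 and 394 CPM in neural and 78.5, 49, 38.5, 115 and 122 CPM in non-neural ectoderm (1.75 ± 0.33). MKI67 and CCND1 did not overlap between the classes. The fit by edgeR no longer called MKI67 without library 30 or 31 (adjusted p = 0.0787 and 0.0954) and TOP2A without library 30 or 31 (adjusted p = 0.145 and 0.193), and the list's count was 1 without library 30 and 7 without library 32. The call was likewise lost for TOP2A under DESeq2 (adjusted p = 0.0515), without the replicate block (adjusted p = 0.066), with at least 8 cells a class (adjusted p = 0.119) and without the deepest cell (adjusted p = 0.0782).

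The glucose transporter gene SLC2A1 measured 434, 617, 535, 292 and 841 CPM in neural and 1303, 1475, 2447, 1194 and 2873 CPM in non-neural ectoderm (−1.81 ± 0.16). In contrast, ENO1, a glycolytic enzyme in the same list, measured 3026, 3709, 3285, 3331 and 4239.8 CPM in neural and 1894, 1769.6, 1889, 2985 and 2144 CPM in non-neural ectoderm (0.69 ± 0.14), but edgeR did not call ENO1 without library 29 or 30 (adjusted p = 0.0514 and 0.0759). These were the called genes of 10 hypoxia and glycolysis genes tested, 1 in each direction, and neither overlapped. FOS, an immediate early transcription factor gene, measured 1288, 931, 607, 580.1 and 652 CPM in neural and 1693, 2372, 2500.2, 1169 and 1388 CPM in non-neural ectoderm (−1.22 ± 0.19). It was the called gene of 7 immediate early and heat shock genes tested.

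The genes were also followed in single cells, as the share of cells with at least 1 count. These shares are descriptive, since the classes were built from the same cells. SOX2 was detected in 17 of 54 neural cells (31.5%, exact 95% interval 19.5 to 45.6%), in 1 of 40 non-neural cells and in 3 of 149 Mesoderm cells of the same libraries, where it should be absent. The median depths of these cells were 108887, 113303 and 91965 counts. FABP7 was found in 9 neural cells and in 0 of 40 non-neural cells, which allows a share of up to 7.5% (3 cells of 40) and has an exact 95% upper bound of 8.81%. PAX3 was found in 31 neural (57.4%), 5 non-neural and 15 Mesoderm cells. EPCAM was detected in all 40 non-neural cells and also in 32 neural and 102 Mesoderm cells, so its presence in a cell does not separate the classes. CDH1 was found in 27 non-neural, 5 neural and 15 Mesoderm cells.

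At least 2 of 7 dorsal genes (PAX3, PAX7, ZIC1, ZIC2, ZIC4, ZIC5 and WNT1) were found in 38 neural cells (70.4%), 6 non-neural cells (15%) and 14 Mesoderm cells (9.40%). At least 2 of 5 epithelial genes (CDH1, CLDN7, KRT7, GABRP and VTCN1) were found in 10 neural (18.5%), 40 non-neural (100%) and 39 Mesoderm cells (26.2%). Of the neural cells, 30 had at least 2 dorsal genes together with a HOX gene of paralog groups 6 to 10. That HOX set was detected in 45 neural (83.3%), 33 non-neural (82.5%) and 141 Mesoderm cells (94.6%), and so marked no class. GABRP or VTCN1 was found in 31 non-neural cells (77.5%), 8 neural cells (14.8%) and 36 Mesoderm cells (24.2%).

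**Figure D4:**
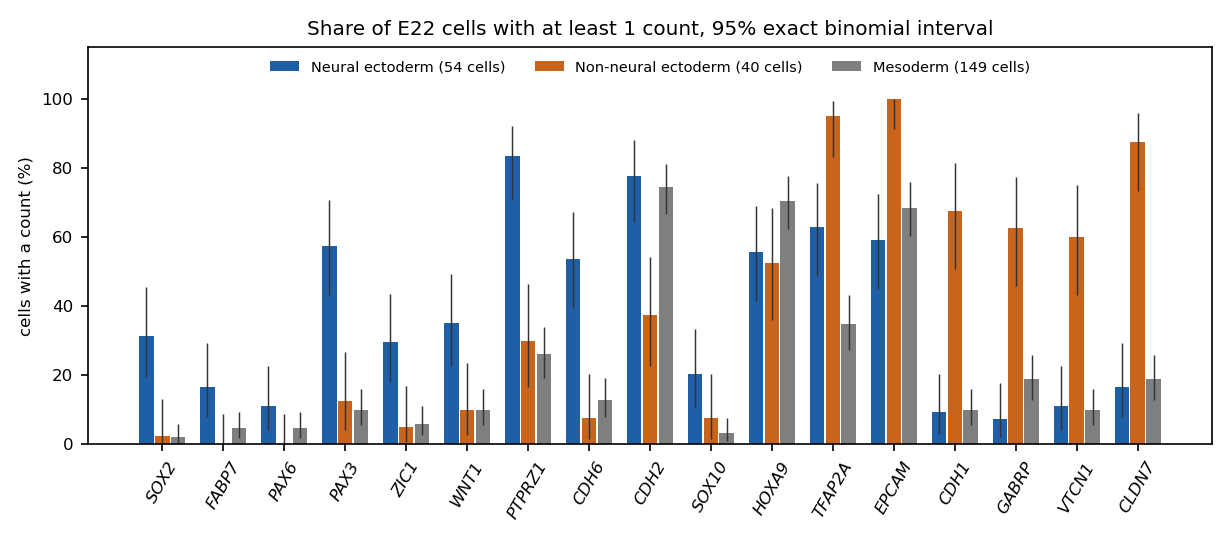
Bars give the share of cells (%) with at least 1 count of a gene in neural ectoderm (54 cells), non-neural ectoderm (40 cells) and Mesoderm (149 cells) of libraries 28 to 32, with exact binomial 95% intervals that cover counting error only. PAX3 stands at 57.4% of neural cells, and EPCAM is detected in all non-neural cells but also in most neural and Mesoderm cells.

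Non-neural ectoderm was also present at E23 in numbers that allow a comparison, with 68 cells in 6 libraries against the 47 cells of E22 in 6 libraries. The E23 cells were wild-type with no treatment named and came, according to the annotation, from 1 male embryo in libraries with another code. The cells sampled differed too. E23 libraries held 10 to 53 extravillous trophoblast cells, 17 to 36 extraembryonic mesenchyme cells and at most 2 Mesoderm cells each. E22 libraries held at most 3, at most 4 and 16 to 41 of these. Day, embryo, sex, library code and the make-up of the libraries therefore cannot be told apart. Of 7410 genes tested, 274 were called (3.7%), 93 higher at E22 (1.26%) and 181 higher at E23 (2.44%), around a median of −0.01. Differences below are E22 minus E23. The 2 classes at E22 and this comparison share the E22 non-neural cells.

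Of 15 surface ectoderm genes tested, 2 were higher at E23 (EPCAM and KRT19) and 1 at E22 (TP63). EPCAM ran from 714 to 1317 CPM (median 869) at E22 and from 1700.0 to 2949 CPM (median 2338) at E23 (−1.37 ± 0.15, edgeR adjusted p = 5e-06). VTCN1 ran from 39.8 to 231 CPM (median 121) at E22 and from 247 to 697 CPM (median 469) at E23 (−1.97 ± 0.33). BAMBI, a BMP pseudoreceptor in the amnion list, ran from 50.1 to 119 CPM (median 80.2) at E22 and from 276 to 566 CPM (median 484) at E23 (−2.56 ± 0.25). The days did not overlap for any of the 3, which held for 252 of all genes tested (3.4%). TP63, a master factor of surface epithelia, differed by 3.52 ± 0.98 and KRT19 by −0.59 ± 0.15, but edgeR no longer called TP63 without E22 library 29, 30, 31, 32 or 33 or E23 library 8, 10, 11, 12 or 13 (adjusted p = 0.0972, 0.121, 0.0581, 0.0624, 0.0784, 0.0767, 0.0877, 0.105, 0.0969 and 0.0864) and KRT19 without E22 library 28, 29, 30, 31 or 33 or E23 library 9, 11, 12 or 13 (adjusted p = 0.0619, 0.0791, 0.0629, 0.0583, 0.0702, 0.0971, 0.0988, 0.0969 and 0.062). Of 8 tested extraembryonic mesenchyme genes, HAND1 was higher at E23 and the matrix proteoglycan DCN at E22 (1.38 ± 0.30). HAND1, a transcription factor of that tissue and of amnion, ran from 48.3 to 220.2 CPM (median 85.5) at E22 and from 266 to 559 CPM (median 508) at E23 (−2.13 ± 0.30), and the BMP target ID1 ran from 120.5 to 416 CPM (median 194) at E22 and from 448 to 945 CPM (median 589.8) at E23 (−1.54 ± 0.27). Of 13 tested amnion genes, VTCN1, IGFBP3 and BAMBI were higher at E23 and POSTN was higher at E22. GABRP, in contrast, overlapped and was not called (−0.98 ± 0.57, edgeR adjusted p = 0.484). The trophoblast genes PAGE4 (−2.16 ± 0.57) and VGLL1 (−2.33 ± 0.55) were higher at E23 too, but edgeR no longer called PAGE4 without E22 library 29, 30, 31, 32 or 33 or E23 library 8, 9, 10 or 13 (adjusted p = 0.0609, 0.0717, 0.0878, 0.0717, 0.0657, 0.105, 0.0771, 0.0719 and 0.0512) and VGLL1 without E23 library 9 (adjusted p = 0.102), nor did DESeq2 call PAGE4 (adjusted p = 0.0582). The trophoblast sum there was 348 to 2675 CPM. The extraembryonic mesenchyme sum was 1158 to 3615 CPM at E23. The part of these cell types in the E23 values was not tested.

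Of 6 tested retinoic acid genes, CRABP2 was called, higher at E22. Its level ran from 1126 to 2250.3 CPM (median 1618) at E22 and from 64.1 to 243 CPM (median 165) at E23 (3.26 ± 0.28, edgeR adjusted p = 1.89e-07). POSTN, a matrix protein of the amnion list, ran from 31 to 322 CPM (median 105) at E22 and from 0 to 10.4 CPM (median 4.30) at E23 (4.52 ± 0.69). CCND1 ran from 38.5 to 235 CPM (median 96.8) at E22 and from 1.16 to 22.8 CPM (median 8.63) at E23 (3.24 ± 0.63), and the FGF feedback gene DUSP6 ran from 12.8 to 215 CPM (median 62.5) at E22 and from 2.90 to 21.4 CPM (median 7.75) at E23 (3.01 ± 0.63). CRABP2, CCND1 and POSTN did not overlap between the days, while DUSP6 did. Of 17 tested proliferation genes, CCND1 was higher at E22 and the related cyclin gene CCND2 at E23 (−0.92 ± 0.25), but edgeR no longer called CCND2 without E22 library 28, 29, 30 or 33 or E23 library 9, 10, 11, 12 or 13 (adjusted p = 0.0873, 0.0701, 0.0694, 0.0637, 0.113, 0.104, 0.0731, 0.0501 and 0.0662). The glycolytic enzymes ENO1 (1.2 ± 0.15) and PGK1 (0.85 ± 0.17) and the hypoxia gene BNIP3 (1.46 ± 0.23) were higher at E22, and SLC2A1 was lower (−0.83 ± 0.21). HOX paralog groups 9 and 10 summed to 53.1 to 215 CPM in the 5 E22 libraries of the main comparison and to 0 to 4.90 CPM at E23. HOXA9, below the filter in this comparison, ran from 8.17 to 169 CPM (median 98.3) at E22 and from 0 to 2.94 CPM (median 0) at E23, and HOXA3, an anterior-group gene, was at 0 in all E23 libraries. The sums of paralog groups 1 to 3 overlapped between the days. They ran from 192 to 237 CPM (median 222) in the same 5 E22 libraries and from 83.8 to 250 CPM (median 137) at E23. Of 37 HOX genes, 8 were tested here, none was called by edgeR or DESeq2, and 2 had an unadjusted p under 0.05. Over all genes tested between the days, 1044 of 7410 had such a p. For the glucose transporter, edgeR no longer called SLC2A1 without E22 library 28, 29 or 31 or E23 library 9 or 11 (adjusted p = 0.0576, 0.0555, 0.0616, 0.0505 and 0.0531).

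**Figure D5:**
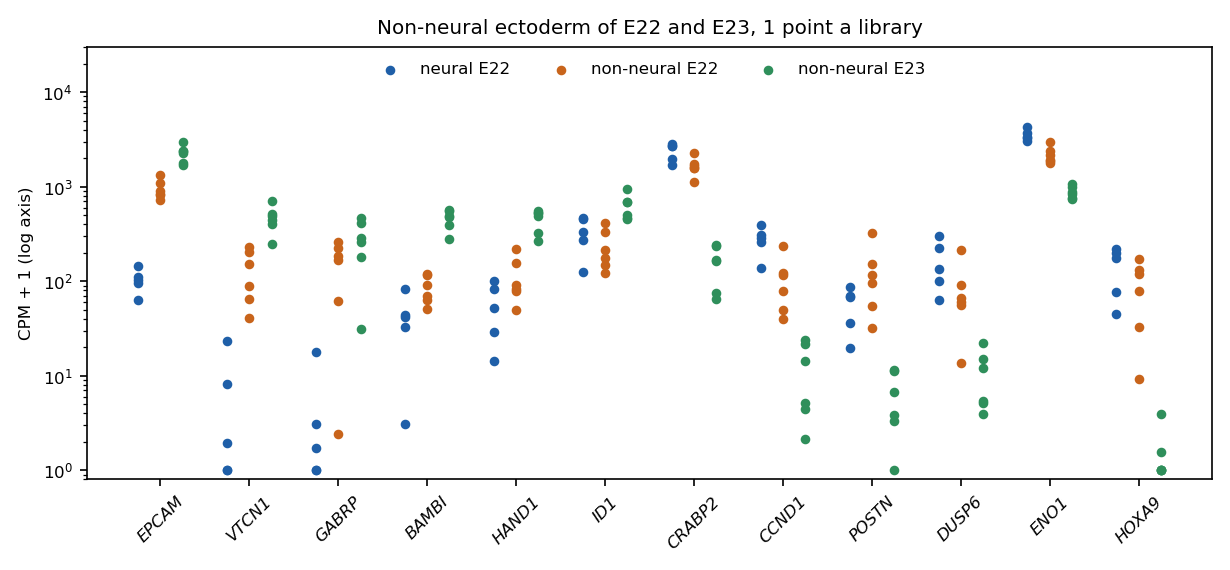
Each point is the level (CPM plus 1, log axis) of a gene in 1 library, for neural ectoderm of E22 (5 libraries), non-neural ectoderm of E22 (6 libraries) and non-neural ectoderm of E23 (6 libraries). CRABP2 lies between 1126 and 2250 CPM in non-neural ectoderm of E22 and below all of these values at E23, and BAMBI and HAND1 lie above all E22 non-neural values at E23.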

How the data were processed

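Single-cell RNA-seq of cultured cynomolgus monkey embryos was deposited by the authors as raw counts per gene and cell, with an annotation of cell classes. Per the submitters' processing notes, cutadapt 1.15, STAR 2.6.0a and HTSeq 0.10.0 were used. The genome build, and whether a count is a read or a molecule, are not stated in the labels or file headers. The table holds 21834 genes, 16240 of them named by symbol, and 5594 with an Ensembl identifier only stayed in the tests unnamed. Column sets of 32 other libraries were not used. Libraries were grouped by their labels. Those whose labels give conflicting days were left out.

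For this work, counts were summed per library and class where each class had at least 5 cells. Genes with low counts were removed by filterByExpr. The sums were compared with edgeR 4.0.16 (TMM scaling, quasi-likelihood F test, library as block, R 4.3.3), with Benjamini-Hochberg adjustment over all tested genes. The comparison of days had no block. Named genes were the members of 32 lists (443 of 482 listed genes matched) and the 15 largest called differences per direction with a mean of at least 30 CPM and 1 sign in all libraries. The members and lists were chosen with earlier results of these data known. Deviations of the 2 classes in a library correlated at −0.04 to 0.03, so library did not act as a pair. Library sums of a class differed beyond sampling noise (chi-square per gene at least 9.47). Alternatives were DESeq2 1.42.0, limma-voom 3.58.1, other scaling, no filter, other cell minimums, thinned counts, no block and leaving out each library. Thinned cells and leaving out the deepest cell, and each library of the day comparison, were chosen after seeing the data. Intervals cover counting error only. Results for some genes are not reported here.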

Additional observations from a re-analysis of the deposited data

Results flagged for a closer look

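Of 100 genes examined for 1 library standing apart from the other 4 in its neural minus non-neural log2 difference (CPM plus 1), 3 had such a library, and chance gives about 1 in 20. TFAP2B, an AP-2 factor of surface ectoderm and crest, had a difference of −6.66 in library 29 against −0.72 to 0.27 in the others. For BAMBI, a BMP pseudoreceptor, the difference of −4.06 in library 31 stood against −1.46 to −0.51. RARB, a retinoic acid receptor, had −3.27 in library 28 against −0.80 to 0.19. In each case the neural sum was low, at 0 for TFAP2B, 2.07 CPM for BAMBI and 12.1 CPM for RARB. None of the 3 genes was called.

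Library 33 was outside the main comparison for want of neural cells. In its 3 neural cells, 13 of the 15 genes with the largest neural differences lay above every non-neural library, and in its 7 non-neural cells, 12 of the 15 genes with the largest non-neural differences lay above every neural library. The cells of library 33 were also clustered together with the others, so these counts are not independent of the class names and are no test of the classes.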

How the results depend on the processing

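In the comparison of classes, DESeq2 called 523 genes (227 higher and 296 lower in neural ectoderm), limma-voom 378 (141 and 237) and no filter on low counts 406 (191 and 215). Leaving out 1 library gave 98 to 213 called genes, 23 to 109 higher and 75 to 132 lower. Cells thinned to 20000 counts left 51 genes higher in neural ectoderm. Without the replicate block 255 were called (94 and 161), and the neural plate list kept 1 call. Of 60 called genes named or listed, 29 kept the call in every alternative that tested them. With at least 8 cells a class, a minimum met only by libraries 30 and 32, TFAP2B turned to 0.13 and CCNB1 to −0.31 from 1.30. In the comparison of days, DESeq2 called 482 genes (214 higher at E22), no filter gave 148 higher at E22, and leaving out 1 library gave 212 to 262 called, 65 to 89 higher and 137 to 177 lower. Of 25 called genes named or listed there, 15 kept the call throughout.

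The neural minus non-neural difference in counts per cell, −16271, was 320.5 with at least 3 cells and −37972 to 8992 without 1 library. That in genes per cell, −96.2, was 90.4 by medians over cells, 284.8 with at least 3 cells and −350.3 to 232 without 1 library. In thinned cells the shares with a count in neural cells were 19.2% for SOX2, 42.3% for PAX3, 61.5% for CDH2, 38.5% for HOXA9, 48.1% for TFAP2A, 44.2% for EPCAM, 3.85% for VTCN1 and 1.92% each for CDH1, GABRP and CLDN7. In non-neural cells they were 0 for SOX2 and WNT1, 10% for PTPRZ1, 12.5% for CDH2, 50% for CDH1 and 65% for CLDN7. The cause of these changes was not tested, apart from the lower depth of thinned cells.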

Other observations

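CER1, a secreted inhibitor of BMP, NODAL and WNT best known from anterior visceral endoderm, was below the filter and measured 22.7, 0, 35.6, 66.3 and 6.22 CPM in the neural sums of libraries 28 to 32. It had 149 counts there and 1 in the non-neural sums, a pooled ratio of 128 (95% exact interval 22.6 to 5073, counting error only). The gene was singled out after its values were seen. CDX2, a posterior axis and trophoblast factor, varied between libraries in both classes, with 98.6 CPM in the neural sum of library 29 and 116 CPM in the non-neural sum of library 28 and from 0 to 43.1 CPM elsewhere.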
